A study of Mus musculus with 6 samples.

Results

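The genes described here are 40 members of the cellular response to low oxygen and of glucose breakdown. The oxygen-sensing list of 3 holds the transcription factor gene Hif1a and the sensor genes Egln1 and Egln3. A further 23 genes carry glucose from uptake to lactate, and 14 are other hypoxia-response genes. The 40 genes were chosen by symbol from the 32245 gene symbols (32285 feature rows) of the deposited matrices, and all 40 symbols were found. Their unique molecular identifiers (UMIs, 1 per captured transcript) were summed over the cells of each cell class in each of 6 libraries. Aldoa has 2 feature rows, which were added.

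The study took non-cardiomyocytes from mouse ventricles by single-cell RNA sequencing (10x Genomics, 3′ tags). Wild-type (WT) mice carried the strain label C57BL/6JRj and Trpm4 knockout (KO) mice the label B6.Cg-Trpm4tm1.2-PG. Trpm4 encodes a calcium-activated cation channel. All mice were males of 8 to 12 weeks. Each genotype was sampled 24 h after a sham operation, 24 h after LAD ligation (tying off the left anterior descending artery), which cuts the blood supply of part of the left ventricle, and 72 h after ligation. Ventricles were digested with thermolysin and papain and passed through filters, and live cells (Calcein-AM positive, DAPI negative) were sorted. Each of the 6 groups is 1 library of 4 pooled mice, so no difference below has a replicate check and none was tested for significance. The labels name no tissue-restricted deletion, do not say which part of Trpm4 the allele lacks and do not say whether WT mice were littermates, so genotype and strain background cannot be told apart.

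In cells short of oxygen, prolyl hydroxylases of the Egln family lose activity and the transcription factor subunit HIF-1alpha, made from Hif1a, is no longer destroyed. It pairs with ARNT and binds short DNA motifs near genes for glucose uptake, glycolysis, lactate export, mitophagy and collagen hydroxylation. Activated macrophages and neutrophils also run on glycolysis, with Hif1a transcribed under inflammatory signals. An mRNA level does not measure protein or metabolic flux.

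The HIF binding motif has the core ACGTG or GCGTG. Promoters of 36 members were matched by symbol in RefSeq (GRCm38.p6), giving 51 start sites; Ero1l, Ndrg1, Bnip3l and Slc2a3 were not matched. A core on either strand (CACGT or CACGC when read on the gene's strand; CACGTG holds ACGTG on both strands) occurred in the 250 bases before the start in 40 of 51 member promoters (78.4%) and in 12679 of 32851 promoters of all genes (38.6%). ACGTG alone occurred in 25 of 51 (49.0%) against 5444 of all (16.6%), and CACGTG in 5 (9.80%) against 1978 (6.02%). Median GC content was 62.8% in members and 52.4% in all, and its part in the motif share was not tested. Gpi1, Tpi1 and Eno2 held no core in this window. A match describes letters and is not evidence of binding. The promoters of a sensor that was among the highest ratios in several classes, of the enzyme that makes lactate, of an ATP-yielding enzyme and of a collagen hydroxylase are shown 5′ to 3′ on the gene's strand, with capitals marking core runs.
Egln3 (chr12:54203875-54204124, minus strand): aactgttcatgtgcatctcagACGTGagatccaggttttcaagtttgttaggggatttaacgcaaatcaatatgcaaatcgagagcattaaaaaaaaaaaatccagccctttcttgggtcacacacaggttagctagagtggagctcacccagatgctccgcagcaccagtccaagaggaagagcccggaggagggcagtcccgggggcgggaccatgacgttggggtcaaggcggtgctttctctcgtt
Ldha (chr7:46845654-46845803, plus strand): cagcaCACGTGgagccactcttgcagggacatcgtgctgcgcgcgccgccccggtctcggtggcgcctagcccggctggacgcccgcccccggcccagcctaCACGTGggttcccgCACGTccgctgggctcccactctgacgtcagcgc
Pgk1 (chrX:106186950-106187099, plus strand): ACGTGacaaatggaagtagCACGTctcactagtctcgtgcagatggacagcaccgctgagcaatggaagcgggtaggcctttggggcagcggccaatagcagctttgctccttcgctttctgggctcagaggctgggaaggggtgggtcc
P4ha1 (chr10:59323046-59323295, plus strand): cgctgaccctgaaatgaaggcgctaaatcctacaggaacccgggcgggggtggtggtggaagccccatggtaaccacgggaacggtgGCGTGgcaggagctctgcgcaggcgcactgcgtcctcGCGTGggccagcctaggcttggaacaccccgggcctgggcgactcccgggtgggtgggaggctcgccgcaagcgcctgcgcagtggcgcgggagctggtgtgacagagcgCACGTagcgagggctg
The single Egln3 run begins 229 bases before the start. Ldha has runs at 145, 48 and 34 bases, Pgk1 at 150 and 131 bases, and P4ha1 at 163, 126 and 16 bases before it.

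The 6 matrices hold 34940 cell barcodes and 199708815 UMIs, from 20995280 per library (KO, 72 h) to 45649061 (WT, 72 h). After filters and removal of likely doublets, 32085 cells remained, and median UMIs per kept cell ran from 1351 (KO, 72 h) to 8011 (WT, 72 h). 118 barcodes occurred in 2 or more libraries, 100 of them among kept cells. Cells were clustered together and named from marker genes as endothelial-like, fibroblast-like, monocyte/macrophage-like and neutrophil-like, called by those names without "like" below. These names are rebuilt here, not the authors'. The 4 classes hold 26646 cells (83.0% of those kept), and their own markers summed to at least 17576 CPM (a gene's UMIs per 1000000 UMIs of the class in a library) in every library. Trpm4 was at 8.79 and 6.20 CPM after sham, 5.52 and 3.46 at 24 h, and 4.29 and 2.57 at 72 h (WT, then KO), and since the lost part is not given, these 3′ tags do not check the knockout. A summed count over a class cannot separate a change in each cell from a shift among the cell states of the class.

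Values below are levels in CPM within a class, or differences as log2 ratios of CPM with a 95% interval that covers counting error only. A pair of values is always WT, then KO. A member counts as measured in a comparison with at least 50 UMIs over its 2 libraries, and as higher or lower at a ratio of 1.5-fold or more. Beside the members' count stands the share of all measured genes past the same limit, called the background. Exact Poisson intervals show the precision of a level: Hilpda in WT monocyte/macrophage cells at 24 h was at 387 (374 to 401) CPM, and Egln3 in KO endothelial cells after sham, with few UMIs, at 1.59 (0.97 to 2.45). List medians carry the medians of their members' lower and upper bounds. Gapdh, Pgk1, Pgam1, Eno1, Tpi1, Ldha and Aldoa have near-identical copies in the genome, so their counts are uncertain where the authors' counting could split reads. Eno1b, a copy of Eno1, holds 1141 UMIs in all.

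Summed over the 23 glycolysis members, endothelial cells held 2124 and 2202 CPM after sham, 3612 and 4148 at 24 h, and 6057 and 5713 at 72 h. Fibroblasts held 2732 and 2985 CPM after sham, 4728 and 5234 at 24 h, and 6454 and 6235 at 72 h. Both stromal sums were thus lowest after sham and highest at 72 h. Monocyte/macrophage markers at 72 h summed to 827 and 4344 CPM in endothelial cells and to 417 and 9243 in fibroblasts. Their part in these sums was not tested. The WT endothelial sum at 72 h rests on few large cells, as given below. Monocyte/macrophage cells held 8095 and 7591 CPM after sham, 12006 and 14764 at 24 h, and 7996 and 7689 at 72 h. Neutrophils held 5203 and 4584 CPM after sham, 7649 and 7322 at 24 h, and 5986 and 6144 at 72 h. Leukocytes were highest at 24 h, and monocyte/macrophage cells at 72 h were near the level of the 24 h sham. No sham library was taken at 72 h, so each 72 h value here and below is set against a sham of another time. The 14 other hypoxia genes had a different course. Endothelial cells held 1021 and 1158 CPM after sham, 1265 and 1356 at 24 h, and 1217 and 1085 at 72 h and fibroblasts 878 and 865 CPM after sham, 1202 and 1228 at 24 h, and 1182 and 1001 at 72 h. Monocyte/macrophage cells held 786 and 776 CPM after sham, 1871 and 1801 at 24 h, and 668 and 793 at 72 h and neutrophils 659 and 561 CPM after sham, 1868 and 1363 at 24 h, and 1084 and 1237 at 72 h. In leukocytes these genes were more than 2-fold above sham at 24 h in both genotypes, while the stromal sums differed less.

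**Figure D1:**
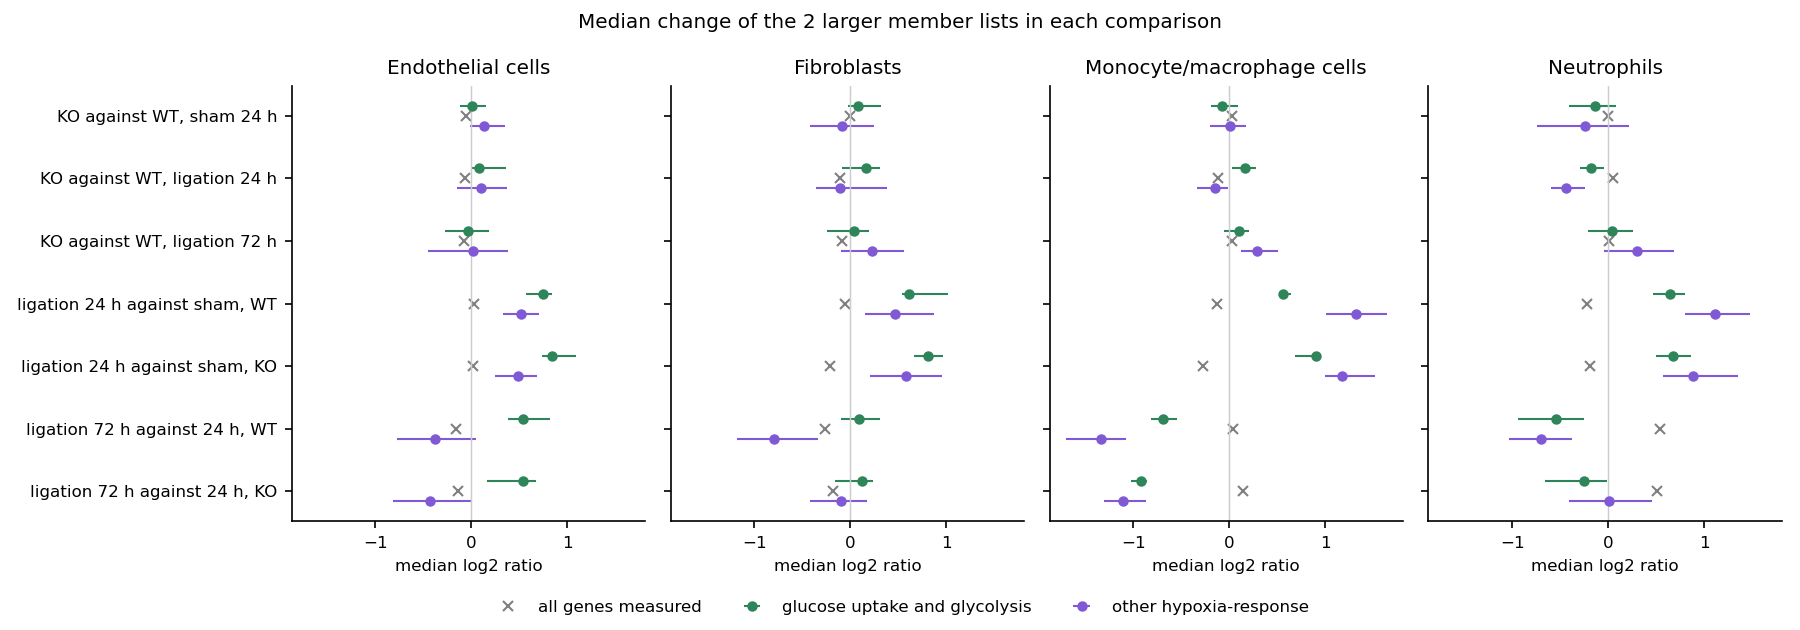
Median log2 ratio of CPM of the measured glycolysis members, of the measured other hypoxia members and of all measured genes, for 7 comparisons in 4 cell classes; bars are the medians of the lower and upper 95% counting bounds. Glycolysis medians lie above 0 for 24 h against sham in all 8 class and genotype combinations, from 0.56 to 0.90, and at 72 h against 24 h they are above 0 in endothelial cells (0.54 and 0.53) and below 0 in monocyte/macrophage cells (-0.69 and -0.92).

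At 24 h after ligation many members were higher than after sham in each class, in WT and in KO. In WT endothelial cells 17 of 34 measured members were higher and none lower, beside a background of 10.2% higher and 8.07% lower. In KO endothelial cells 19 of 32 were higher and 0 lower, beside 9.53% and 7.52%. The glycolysis median was 0.75 (0.56 to 0.84) in WT and 0.84 (0.73 to 1.09) in KO, and the median of the other hypoxia members 0.52 (0.32 to 0.70) and 0.48 (0.25 to 0.69), against medians over all genes of 0.03 and 0.02. Hk2, Slc16a3, Slc2a1, Egln3 and Hilpda had the highest log2 ratios, from 3.53 (2.51 to 4.69) to 2.09 (1.80 to 2.38) in WT. Mxi1, Bnip3l, Ndrg1, Pfkfb3 and Gpi1 had the lowest, from -0.43 (-0.73 to -0.13) to 0.06 (-0.08 to 0.19). In KO, Slc16a3, Slc2a1, Adm, Hilpda and Pgk1 had the highest, from 3.24 (2.61 to 3.90) to 1.42 (1.26 to 1.59), and Ddit4, Ndrg1, Mxi1, Kdm3a and Bnip3l had the lowest, from -0.38 (-0.57 to -0.18) to -0.13 (-0.26 to -0.01). Slc16a3, a lactate exporter, and Slc2a1, a glucose transporter, were among the highest in both genotypes, from few UMIs after sham. Neutrophil markers in endothelial cells summed to 221 and 133 CPM after sham (12 of 16 detected in each, Ly6g, Cd177, Camp and Stfa2l1 at 0) and to 479 (13 detected, Mmp8, Ly6g and Camp at 0) and 1839 (14 detected, Ly6g and Ltf at 0) at 24 h. Red-cell markers summed to 7219 and 9205 CPM after sham and to 30.4 and 2765 at 24 h. Leaving out barcodes with over 5% hemoglobin UMIs, 52 of them endothelial, moved no median or count of the members. The part of the remaining red-cell RNA and of neutrophil RNA in the ratios was not tested.

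In WT fibroblasts 18 of 34 measured members were higher (background 12.4%) and 1 lower (background 15.5%). In KO fibroblasts 17 of 32 were higher (background 11%) and 1 lower (background 26.3%), in both cases Mxi1, a repressor of the MYC network. The glycolysis median was 0.61 (0.53 to 1.02) and 0.81 (0.66 to 0.97), that of the other hypoxia members 0.46 (0.15 to 0.88) and 0.58 (0.21 to 0.95), and that of all genes -0.06 and -0.21. Slc2a1, Hk2, Hilpda, Slc16a3 and Ero1l had the highest log2 ratios, from 3.47 (2.82 to 4.19) to 1.94 (1.61 to 2.29) in WT. Mxi1, Bnip3l, Pfkp, P4ha1 and P4ha2 had the lowest, from -0.66 (-1.06 to -0.28) to -0.17 (-0.56 to 0.22). In KO, Slc2a1, Ero1l, Slc16a3, Hk2 and Pfkl had the highest, from 2.38 (1.90 to 2.87) to 1.54 (1.18 to 1.90), and Mxi1, Egln1, Bnip3l, Ndrg1 and Kdm3a had the lowest, from -0.77 (-1.23 to -0.33) to -0.17 (-0.75 to 0.39). Slc2a1, Hk2, Slc16a3 and the oxidoreductase gene Ero1l were among the highest in both genotypes. Neutrophil markers in fibroblasts summed to 707 and 554 CPM after sham (11 of 16 detected in each, Ly6g, Cd177, Ltf, Ngp and Stfa2l1 at 0) and to 1017 (12 detected, Ly6g, Ltf, Ngp and Stfa2l1 at 0) and 1563 (14 detected, Ly6g and Ngp at 0) at 24 h, and their part was not tested.

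In WT monocyte/macrophage cells 21 of 38 measured members were higher and none lower, beside a background of 5.9% and 12.4%. In KO the count was 28 of 39, none lower, beside 4.09% and 23.8%. The median of the other hypoxia members was 1.32 (1.01 to 1.64) and 1.17 (1.0 to 1.51), and that of the glycolysis members 0.56 (0.53 to 0.64) and 0.90 (0.69 to 0.95), against -0.12 and -0.27 over all genes. Egln3, Slc2a3, Hilpda, Bnip3 and Ero1l had the highest log2 ratios, from 3.63 (3.21 to 4.08) to 2.05 (1.91 to 2.18) in WT. Pfkfb4, Slc16a1, Hk3, Eno1 and Pfkl had the lowest, from -0.47 (-0.78 to -0.17) to 0.26 (0.14 to 0.39). In KO, Egln3, Hilpda, Bnip3, P4ha2 and Ero1l had the highest, from 3.44 (2.89 to 4.04) to 1.70 (1.56 to 1.85), and Pfkfb4, Slc16a1, Hif1a, Egln1 and P4ha1 had the lowest, from -0.49 (-0.77 to -0.21) to 0.04 (-0.07 to 0.16). The KO ratio of Hif1a turned to 0.17 when ratios were centred on the median gene. Hilpda, a lipid droplet protein, and Bnip3, a mitophagy receptor, were among the 5 highest in both genotypes. Neutrophil markers in this class moved too: 13 and 12 of 16 were detected after sham (Ltf and Camp at 0 in both, Ngp in WT, Ly6g and Stfa2l1 in KO), summing to 553 and 623 CPM, and 15 and 16 at 24 h, summing to 2451 and 3685 CPM (Camp at 0 in WT). They summed to 68572.5 CPM or more in neutrophils, and their part in the ratios was not tested.

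In WT neutrophils 21 of 35 measured members were higher (background 10.3%) and 1 lower (background 24.4%). In KO neutrophils 23 of 35 were higher (background 6.6%) and none lower (background 16%). The median of the other hypoxia members was 1.11 (0.80 to 1.48) and 0.88 (0.57 to 1.35), that of the glycolysis members 0.64 (0.47 to 0.80) and 0.67 (0.50 to 0.87), and that of all genes -0.22 and -0.18. Egln3, Hilpda, Ero1l, Fam162a and Hk2 had the highest log2 ratios, from 3.5 (3.14 to 3.88) to 1.83 (1.61 to 2.05) in WT. Pfkfb4, Ankrd37, Hk3, Slc2a3 and Ndrg1 had the lowest, from -0.68 (-0.93 to -0.43) to 0.18 (-0.30 to 0.67). In KO, Hilpda, Egln3, Ero1l, Pdk1 and Fam162a had the highest, from 3.15 (2.78 to 3.54) to 1.83 (1.34 to 2.36), and Pfkfb4, Hif1a, Hk1, Slc2a3 and Hk3 had the lowest, from -0.47 (-0.68 to -0.25) to 0.09 (-0.16 to 0.33). Pfkfb4, a regulator of phosphofructokinase, was the lowest member of both leukocyte classes in both genotypes. Monocyte/macrophage markers in neutrophils summed to 2225 and 2142 CPM after sham (22 of 23 detected in each, Folr2 at 0) and to 3036 (22 detected, Folr2 at 0) and 5643 (all 23 detected) at 24 h, and their part was not tested.

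**Figure D2:**
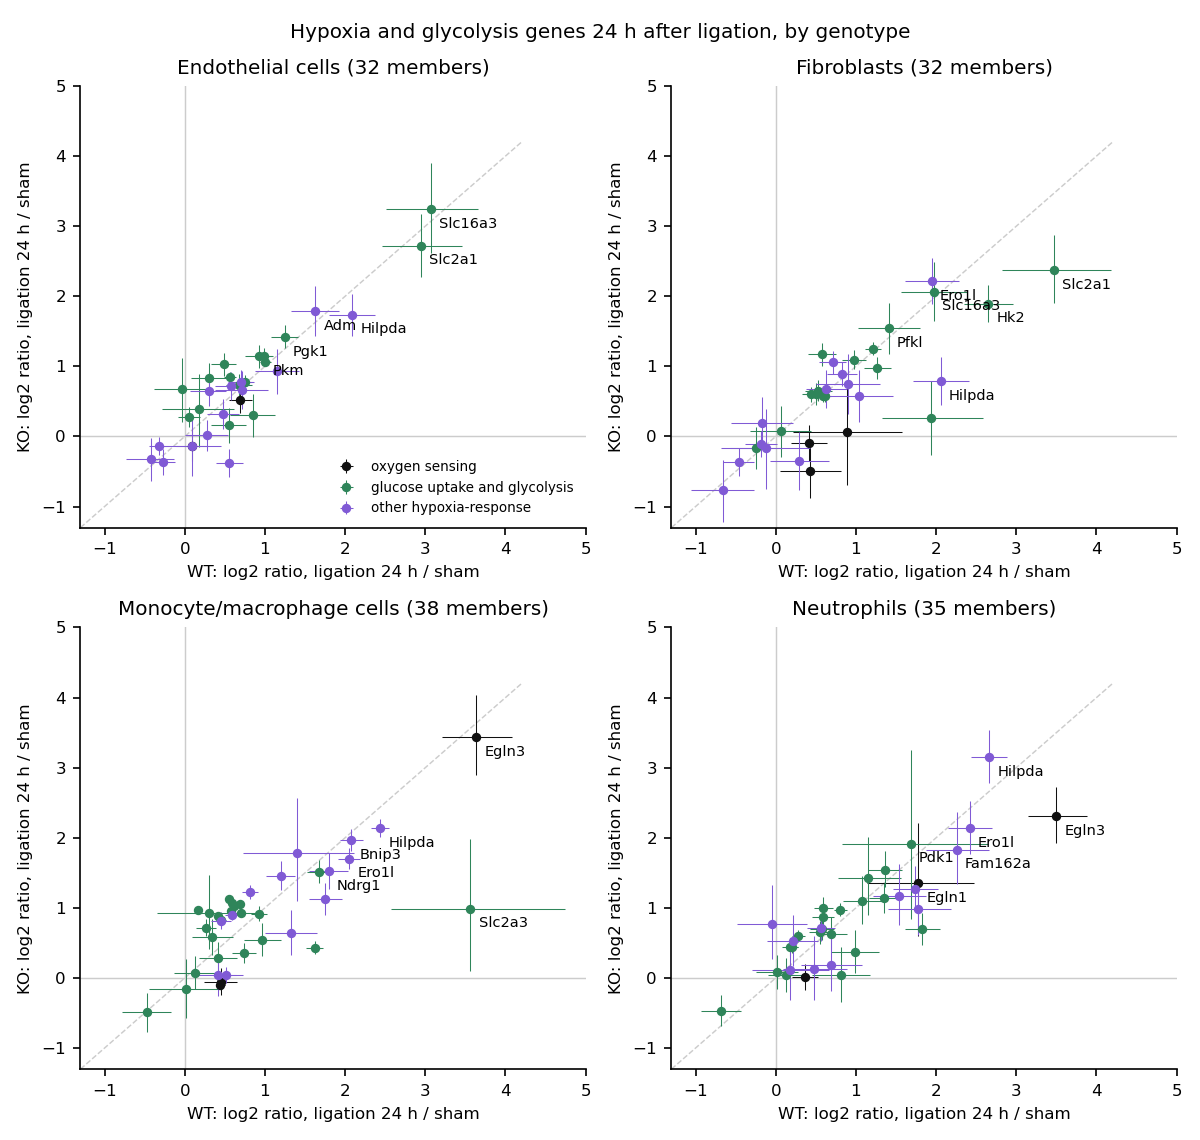
Log2 ratio of CPM at 24 h after ligation against sham for each measured member (points), WT on the x axis and KO on the y axis, in 4 cell classes; bars are 95% counting intervals. The 2 axes share no library, only members measured in both genotypes are drawn, and the dashed line marks equal ratios. Most points lie above 0 on both axes, with Egln3 at 3.63 and 3.44 in monocyte/macrophage cells and Slc2a1 at 3.47 and 2.38 in fibroblasts.

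In the oxygen-sensing list, Hif1a was measured in every class. Endothelial cells held 120.4 and 97.9 CPM after sham, 195 and 139.8 at 24 h, and 190.2 and 177 at 72 h. Fibroblasts held 87.9 and 84.5 CPM after sham, 118 and 79.5 at 24 h, and 183 and 131 at 72 h. In endothelial cells the 4 ligation libraries were all above sham, and in fibroblasts only the 72 h pair was clearly so. Hif1a of monocyte/macrophage cells was at 449.8 and 485 CPM after sham, 613 and 452 at 24 h, and 189.7 and 253 at 72 h. Hif1a of neutrophils was at 207 and 189.6 CPM after sham, 267 and 191 at 24 h, and 137 and 191 at 72 h. In both leukocyte classes the WT library at 24 h was highest and the WT library at 72 h lowest.

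Egln3, a prolyl hydroxylase that is itself a HIF target, was at 30.9 and 35.1 CPM after sham, 349 and 174 at 24 h, and 50.5 and 55.0 at 72 h in neutrophils. Both 24 h libraries were highest, WT above KO. Egln3 in monocyte/macrophage cells was at 4.72 and 3.43 CPM after sham, 58.6 and 37.3 at 24 h, and 5.87 and 8.14 at 72 h, again highest at 24 h. In endothelial cells it was at 1.93 and 1.59 CPM after sham, 11.2 and 6.39 at 24 h, and 34.1 and 24.3 at 72 h, where the 72 h libraries were highest, and in fibroblasts it ranged over 5.60 to 16.7 CPM. Egln1, the main hydroxylase under normal oxygen, ranged over 37.3 to 92.3 CPM in endothelial cells, 22.1 to 44.9 CPM in fibroblasts, 20.4 to 49.6 CPM in monocyte/macrophage cells and 9.58 to 36.9 CPM in neutrophils. Its neutrophil ratio at 24 h was 1.78 (1.14 to 2.48) in WT and 1.35 (0.60 to 2.21) in KO.

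At glucose entry, the transporter Slc2a1 was at 45.5 and 42.6 CPM after sham, 145 and 121 at 24 h, and 33.7 and 33.8 at 72 h in monocyte/macrophage cells. In neutrophils Slc2a1 was at 137 and 105 CPM after sham, 222 and 163 at 24 h, and 97.6 and 75.6 at 72 h. Both classes had their highest pair at 24 h and their lowest at 72 h. Endothelial Slc2a1 was at 5.44 and 6.20 CPM after sham, 41.9 and 40.9 at 24 h, and 30.5 and 27.6 at 72 h. Fibroblast Slc2a1 was at 5.49 and 11.0 CPM after sham, 60.9 and 57.2 at 24 h, and 26.5 and 27.2 at 72 h. In both, the 72 h pair lay between sham and 24 h. Slc2a3, the other transporter, reached 100 CPM in neutrophils but in none of the other 3 classes, at 91.6 to 119 CPM, and passed 1.5-fold in no neutrophil comparison. Monocyte/macrophage Slc2a3 ranged over 0.833 to 9.84 CPM, with 3.56 (2.57 to 4.74) at 24 h against sham in WT and 0.99 (0.10 to 1.98) in KO. In endothelial cells and fibroblasts it did not pass 8.15 CPM.

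Hexokinases make the first step irreversible. Hk2 was at 28.0 and 40.1 CPM after sham, 176 and 149 at 24 h, and 51.4 and 60.0 at 72 h in fibroblasts. Hk2 in monocyte/macrophage cells was at 94.5 and 164 CPM after sham, 291 and 221 at 24 h, and 49.7 and 68.9 at 72 h. In neutrophils it was at 90.3 and 114 CPM after sham, 320.3 and 185 at 24 h, and 102 and 104 at 72 h. All 3 classes were highest in the WT library at 24 h, with the KO library second. Endothelial Hk2 ranged over 1.13 to 13.8 CPM. Hk3, a myeloid hexokinase, was at 84.6 and 102 CPM after sham, 85.7 and 108 at 24 h, and 51.0 and 38.9 at 72 h in neutrophils, lowest in the 72 h pair. Hk3 ranged over 23.4 to 43.0 CPM in monocyte/macrophage cells and was never measured in the stromal classes. Hk1 ranged over 56.4 to 82.6 CPM in endothelial cells, 20.9 to 40.6 CPM in fibroblasts, 23.2 to 37.1 CPM in monocyte/macrophage cells and 37.8 to 69.0 CPM in neutrophils.

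Gpi1 turns glucose phosphate into fructose phosphate. It was at 177 and 175 CPM after sham, 184 and 212 at 24 h, and 286 and 282 at 72 h in endothelial cells. In fibroblasts Gpi1 was at 153 and 162 CPM after sham, 217 and 247 at 24 h, and 194 and 251 at 72 h. The endothelial 72 h pair was highest, whereas fibroblasts reached about the same level in KO at both times. Monocyte/macrophage Gpi1 was at 380.1 and 373 CPM after sham, 519.6 and 664 at 24 h, and 347 and 320.5 at 72 h. Neutrophil Gpi1 was at 236 and 232 CPM after sham, 352 and 377 at 24 h, and 213 and 215 at 72 h. The 24 h pair was highest in both, KO above WT.

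Phosphofructokinase commits sugar to glycolysis. Its liver-type gene Pfkl was at 63.8 and 56.2 CPM after sham, 78.6 and 101 at 24 h, and 87.2 and 87.6 at 72 h in endothelial cells. Pfkl in monocyte/macrophage cells was at 98.6 and 89.4 CPM after sham, 118 and 147 at 24 h, and 65.1 and 69.6 at 72 h. Both had the KO library at 24 h as the highest of the 6. Pfkl ranged over 23 to 68.5 CPM in fibroblasts and 19.2 to 70.9 CPM in neutrophils. The platelet-type gene Pfkp was at 60.5 and 67.5 CPM after sham, 101 and 86.0 at 24 h, and 39.8 and 46.2 at 72 h in monocyte/macrophage cells and at 82.8 and 50.4 CPM after sham, 175 and 108 at 24 h, and 48.5 and 52.7 at 72 h in neutrophils. In both classes Pfkp was highest in WT at 24 h. Pfkp ranged over 30.6 to 56.7 CPM in endothelial cells and 37.0 to 60.7 CPM in fibroblasts.

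Pfkfb3 and Pfkfb4 make the activator of phosphofructokinase. Neutrophil Pfkfb3 was at 53.3 and 64.5 CPM after sham, 105 and 83.7 at 24 h, and 27.5 and 43.5 at 72 h. Neutrophil Pfkfb4 was at 113 and 139.8 CPM after sham, 70.7 and 101 at 24 h, and 95.6 and 109.9 at 72 h. Within each genotype Pfkfb3 was highest and Pfkfb4 lowest at 24 h. Pfkfb3 ranged over 11.6 to 32.9 CPM in endothelial cells, 4.84 to 12.8 CPM in fibroblasts and 20.1 to 48.0 CPM in monocyte/macrophage cells. Pfkfb4 ranged over 2.03 to 14.1 CPM in fibroblasts and 15.7 to 23.6 CPM in monocyte/macrophage cells and was never measured in endothelial cells.

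Aldoa cleaves the 6-carbon sugar. Aldoa was at 419.9 and 474 CPM after sham, 622 and 853 at 24 h, and 829 and 737 at 72 h in endothelial cells. In fibroblasts it was at 468 and 551 CPM after sham, 705 and 820.0 at 24 h, and 799.5 and 867 at 72 h. Ligation libraries were above sham in both. Aldoa in monocyte/macrophage cells was at 921 and 976 CPM after sham, 1414 and 1985 at 24 h, and 1035 and 1023 at 72 h. In neutrophils Aldoa was at 789 and 759 CPM after sham, 959.6 and 1146 at 24 h, and 976 and 1056 at 72 h. The KO library at 24 h was the highest of all in both leukocyte classes. Aldoc, a neighbour enzyme, reached 9.11 CPM at most in the 4 classes and was measured in monocyte/macrophage cells only.

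Tpi1 balances the 2 triose phosphates. Endothelial Tpi1 was at 80.0 and 85.7 CPM after sham, 152 and 189.7 at 24 h, and 331 and 331 at 72 h. Fibroblast Tpi1 was at 149 and 173 CPM after sham, 215 and 271 at 24 h, and 428 and 437 at 72 h. Both stepped up from sham to 24 h and again to 72 h. Monocyte/macrophage Tpi1 was at 497 and 464 CPM after sham, 728 and 1010.3 at 24 h, and 513 and 496 at 72 h. Neutrophil Tpi1 was at 102 and 87.5 CPM after sham, 263 and 255 at 24 h, and 203 and 222 at 72 h. In monocyte/macrophage cells the KO library at 24 h stood out, while in neutrophils all 4 ligation libraries were above sham.

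Gapdh oxidises the triose and yields NADH. Gapdh in endothelial cells was at 482 and 485 CPM after sham, 967 and 1018 at 24 h, and 1747 and 1606 at 72 h. Gapdh in fibroblasts was at 675 and 692 CPM after sham, 1032 and 1027 at 24 h, and 1779 and 1736 at 72 h. In both, the order was sham, 24 h, 72 h, with the genotypes close at each time. Gapdh in monocyte/macrophage cells was at 2214 and 1990.0 CPM after sham, 3304 and 3858 at 24 h, and 2405 and 2211 at 72 h. Gapdh in neutrophils was at 831 and 655 CPM after sham, 1453 and 1283 at 24 h, and 1271 and 1303 at 72 h. Monocyte/macrophage cells returned towards sham at 72 h in both genotypes, and neutrophils in WT, by less, but not in KO.

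Pgk1 regains ATP. In endothelial cells Pgk1 was at 72.1 and 72.0 CPM after sham, 171 and 193 at 24 h, and 359 and 323 at 72 h. In fibroblasts Pgk1 was at 117 and 151 CPM after sham, 282 and 297 at 24 h, and 400.1 and 345 at 72 h. Both classes were higher at each later time in each genotype. Pgk1 in monocyte/macrophage cells was at 485 and 445 CPM after sham, 783 and 928 at 24 h, and 418 and 432 at 72 h. In neutrophils Pgk1 was at 138 and 125 CPM after sham, 351 and 275 at 24 h, and 161 and 226 at 72 h. The 24 h pair was highest in both leukocyte classes.

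Pgam1 moves the phosphate group. Its endothelial level was 98.6 and 100.4 CPM after sham, 158 and 166 at 24 h, and 299 and 316 at 72 h. Its fibroblast level was 164 and 184 CPM after sham, 322 and 391 at 24 h, and 501 and 439 at 72 h. The 72 h pair was highest in both. Its monocyte/macrophage level was 466 and 464 CPM after sham, 754 and 886 at 24 h, and 541 and 487 at 72 h. Its neutrophil level was 282 and 219 CPM after sham, 425 and 402 at 24 h, and 432 and 424 at 72 h. In neutrophils all 4 ligation libraries lay close together, above sham.

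Eno1, an enolase, was at 114 and 91.6 CPM after sham, 159 and 187 at 24 h, and 335 and 373 at 72 h in endothelial cells. In fibroblasts Eno1 was at 139 and 118 CPM after sham, 208 and 266 at 24 h, and 403 and 403 at 72 h. The 72 h pair was again highest. Eno1 in monocyte/macrophage cells was at 825 and 635 CPM after sham, 928 and 1246 at 24 h, and 567 and 631 at 72 h. In neutrophils Eno1 was at 367 and 271 CPM after sham, 552 and 543 at 24 h, and 464 and 488 at 72 h. KO sham libraries were below WT sham libraries in all 4 classes, and only monocyte/macrophage cells ended below sham at 72 h. Eno2, the neuronal enolase, was measured in none of the 4 classes.

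Pkm makes pyruvate. Endothelial Pkm was at 179 and 189 CPM after sham, 357 and 419.9 at 24 h, and 767 and 693 at 72 h. Fibroblast Pkm was at 326 and 346 CPM after sham, 443 and 524 at 24 h, and 741 and 664 at 72 h. These followed the stepwise course of Tpi1. Monocyte/macrophage Pkm was at 945 and 878 CPM after sham, 1425 and 1844 at 24 h, and 1045 and 912 at 72 h. Neutrophil Pkm was at 909 and 907 CPM after sham, 1044 and 1232 at 24 h, and 867 and 781 at 72 h. Neutrophils were lowest at 72 h.

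Ldha reduces pyruvate to lactate. Endothelial Ldha was at 284 and 332 CPM after sham, 477 and 572 at 24 h, and 781 and 675 at 72 h. Fibroblast Ldha was at 338 and 380.3 CPM after sham, 784 and 907 at 24 h, and 874 and 730.5 at 72 h. Fibroblasts had reached their higher level by 24 h. Monocyte/macrophage Ldha was at 798 and 744 CPM after sham, 1066 and 1373 at 24 h, and 719 and 714 at 72 h. Neutrophil Ldha was at 267 and 220.3 CPM after sham, 392 and 346 at 24 h, and 483 and 500.4 at 72 h. In neutrophils the 72 h pair was highest, but the WT ratio of 72 h to 24 h turned from 0.30 to -0.24 when centred on the median gene.

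Slc16a3 exports lactate. Its monocyte/macrophage level was 130.5 and 122 CPM after sham, 248 and 231 at 24 h, and 82.2 and 99.4 at 72 h. In neutrophils it was at 528 and 360.1 CPM after sham, 598 and 490.3 at 24 h, and 309 and 308 at 72 h. The 72 h pair was lowest in both. Endothelial Slc16a3 ranged over 2.70 to 58.4 CPM and fibroblast Slc16a3 over 15.4 to 99.0 CPM, with sham lowest in each. Slc16a1, a second carrier, ranged over 7.99 to 30.7 CPM in fibroblasts and 4.48 to 8.95 CPM in monocyte/macrophage cells and was not measured in neutrophils. Pdk1, a brake on pyruvate oxidation, stayed in the 4 classes at or under 30.4 CPM.

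**Figure D3:**
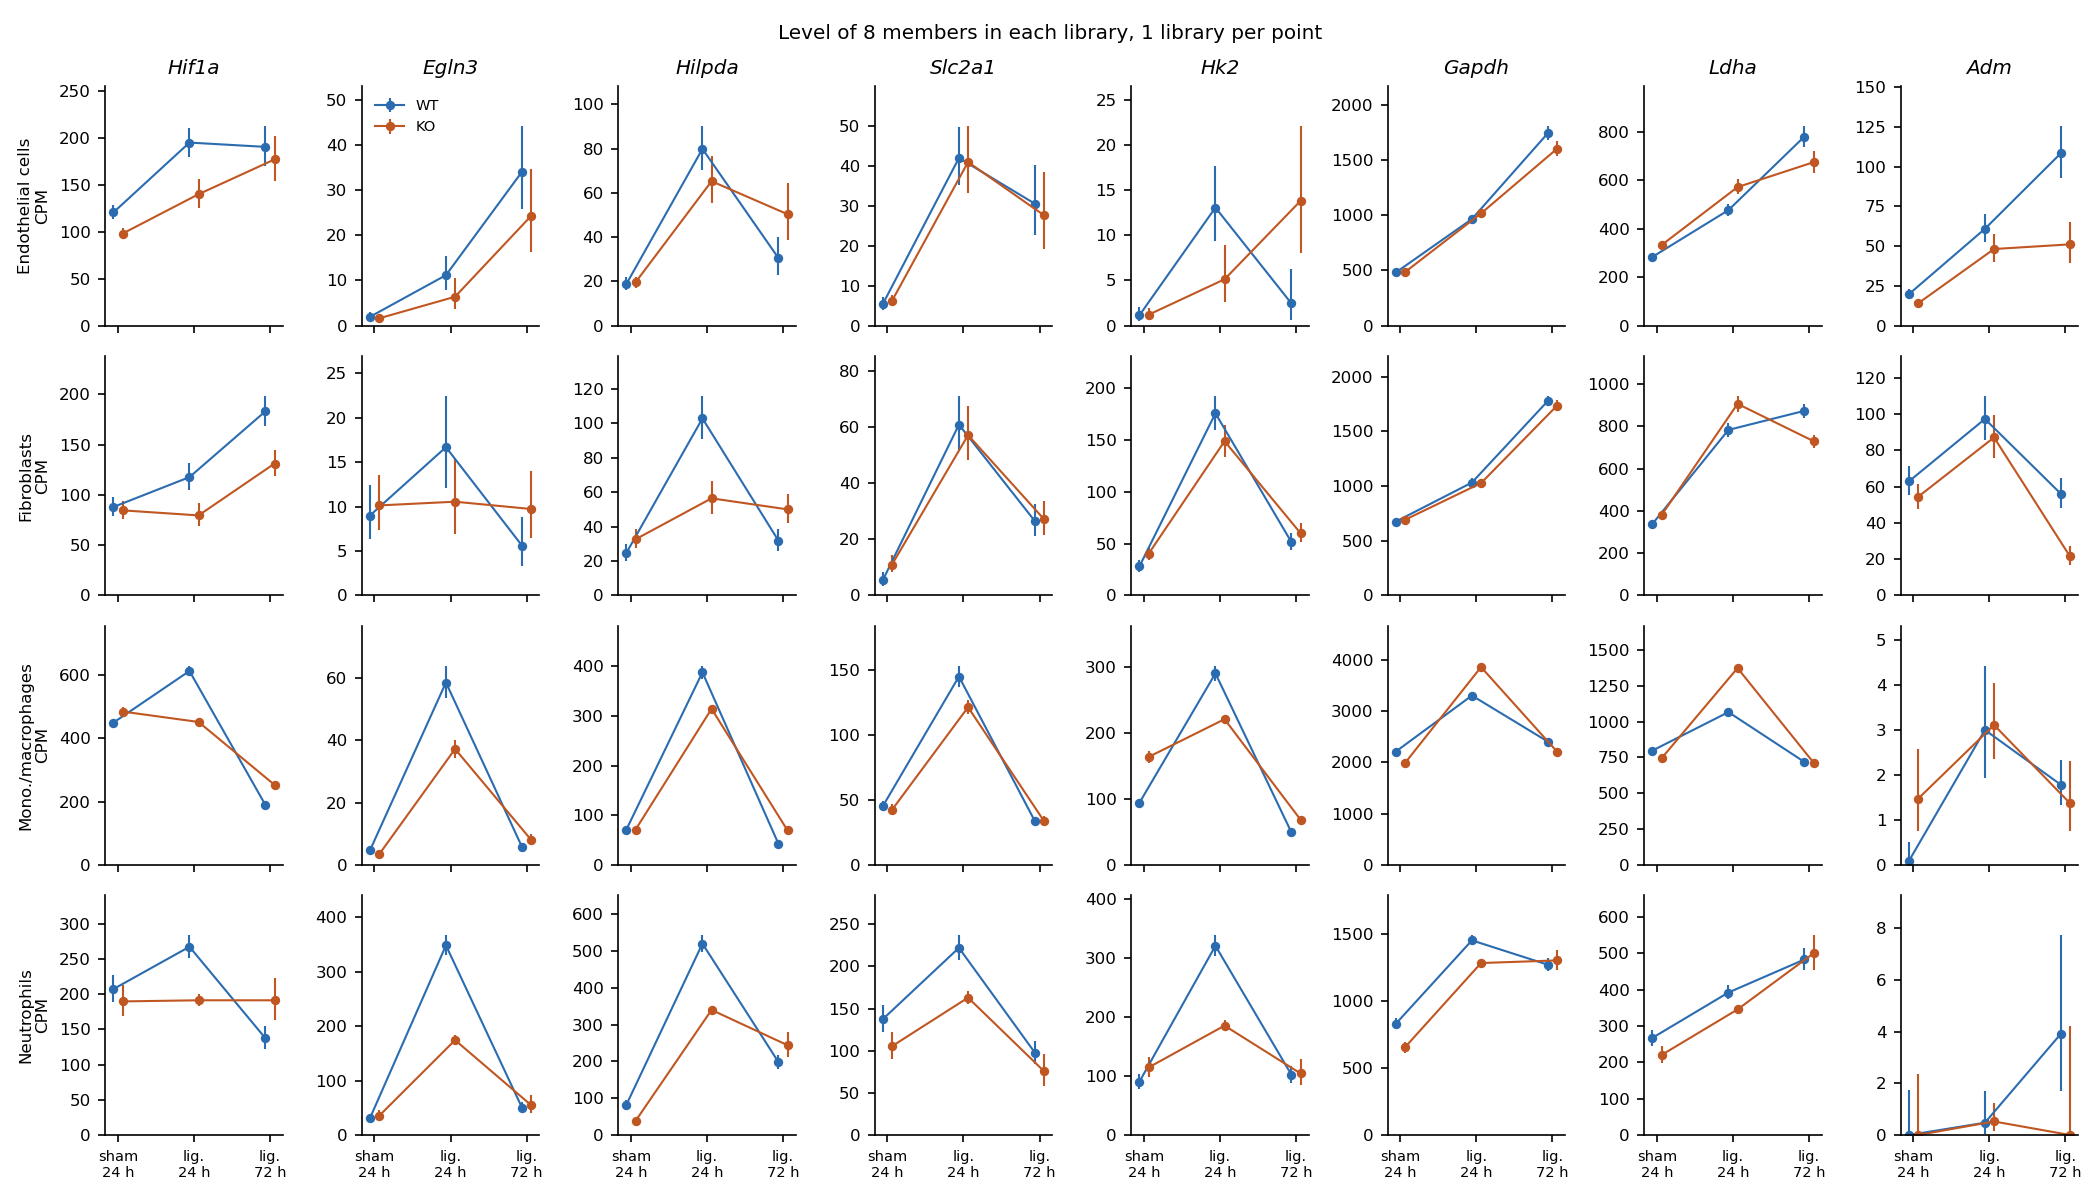
Levels in CPM (linear axes from 0, each panel with its own scale) of 8 members in 4 cell classes and 6 libraries, 1 point per library, WT and KO in separate colours; bars are exact 95% Poisson intervals. Gapdh steps up to 72 h in endothelial cells and fibroblasts, and Hilpda and Egln3 peak at 24 h in monocyte/macrophage cells and neutrophils.

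Among genes acting on mitochondria, Bnip3 was at 69.9 and 80.5 CPM after sham, 97.2 and 101 at 24 h, and 55.5 and 60.0 at 72 h in endothelial cells. Bnip3 in monocyte/macrophage cells was at 46.0 and 47.2 CPM after sham, 194 and 185 at 24 h, and 50.2 and 63.9 at 72 h. In neutrophils Bnip3 was at 59.4 and 58.7 CPM after sham, 198 and 142 at 24 h, and 90.7 and 113 at 72 h. The leukocyte 24 h libraries were the highest, and neutrophils kept a level above sham at 72 h. Its relative Bnip3l was at 91.7 and 81.6 CPM after sham, 126 and 144 at 24 h, and 115 and 122 at 72 h in monocyte/macrophage cells. In neutrophils Bnip3l was at 176 and 161 CPM after sham, 260.3 and 265 at 24 h, and 241 and 228 at 72 h. Bnip3l stayed above sham through 72 h in both, while it ranged over 178 to 275 CPM in endothelial cells and 113 to 179 CPM in fibroblasts, highest after sham.

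Fam162a is a mitochondrial protein linked to hypoxic cell death. Endothelial Fam162a was at 65.7 and 71.7 CPM after sham, 97.9 and 119 at 24 h, and 154 and 157 at 72 h. Fibroblast Fam162a was at 111 and 125 CPM after sham, 196 and 231 at 24 h, and 269.9 and 209 at 72 h. Ligation libraries were above sham in both. Monocyte/macrophage Fam162a was at 134 and 130.1 CPM after sham, 236 and 304 at 24 h, and 111 and 126 at 72 h. Neutrophil Fam162a was at 28.1 and 22.3 CPM after sham, 134 and 79.5 at 24 h, and 92.2 and 116 at 72 h. In monocyte/macrophage cells KO at 24 h was highest, and in neutrophils WT at 24 h.

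Higd1a protects respiratory complexes. Endothelial Higd1a was at 94.3 and 98.6 CPM after sham, 153 and 169 at 24 h, and 206 and 204 at 72 h. Fibroblast Higd1a was at 139 and 134 CPM after sham, 227 and 279 at 24 h, and 304 and 208 at 72 h. WT fibroblasts were highest at 72 h and KO fibroblasts at 24 h. Monocyte/macrophage Higd1a was at 188 and 178 CPM after sham, 283 and 333 at 24 h, and 161 and 171 at 72 h. Neutrophil Higd1a was at 42.1 and 30.6 CPM after sham, 122 and 69.2 at 24 h, and 87.3 and 123 at 72 h. WT neutrophils were highest at 24 h and KO neutrophils at 72 h.

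Hilpda blocks fat breakdown in lipid droplets. In fibroblasts it was at 24.7 and 32.6 CPM after sham, 103 and 56.4 at 24 h, and 31.8 and 49.9 at 72 h. Monocyte/macrophage Hilpda was at 71.7 and 71.4 CPM after sham, 387 and 314 at 24 h, and 42.9 and 69.7 at 72 h. In neutrophils it was at 82.3 and 38.3 CPM after sham, 519.9 and 339.8 at 24 h, and 198 and 244 at 72 h. WT at 24 h was the highest library in all 3 classes, with KO at 24 h second. Endothelial Hilpda was at 18.8 and 19.5 CPM after sham, 79.8 and 65.2 at 24 h, and 30.5 and 50.3 at 72 h, with the same pair highest.

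In the endoplasmic reticulum, Ero1l forms disulfide bonds. It was at 26.2 and 23.8 CPM after sham, 101 and 110.3 at 24 h, and 33.6 and 65.7 at 72 h in fibroblasts. Ero1l in monocyte/macrophage cells was at 54.2 and 54.9 CPM after sham, 224 and 179 at 24 h, and 36.1 and 49.0 at 72 h. In neutrophils Ero1l was at 55.6 and 38.3 CPM after sham, 297 and 168 at 24 h, and 66.7 and 81.3 at 72 h. Levels were highest at 24 h in each class and lower again at 72 h, though still above sham in fibroblasts and neutrophils. Endothelial Ero1l ranged over 23.9 to 61.2 CPM.

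P4ha1 and P4ha2 hydroxylate collagen prolines. P4ha1 was at 90.8 and 109.8 CPM after sham, 129 and 113 at 24 h, and 57.5 and 68.2 at 72 h in monocyte/macrophage cells. In neutrophils P4ha1 was at 29.9 and 39.6 CPM after sham, 103 and 78.4 at 24 h, and 52.9 and 77.9 at 72 h. Neutrophil P4ha1 was above sham in all 4 ligation libraries. Fibroblast P4ha1 ranged only over 123 to 163 CPM and passed 1.5-fold nowhere. Fibroblast P4ha2 was at 39.2 and 35.9 CPM after sham, 34.9 and 41.0 at 24 h, and 117 and 51.0 at 72 h, high in 1 library, WT at 72 h. Endothelial P4ha1 was at 43.8 and 90.2 CPM after sham, 53.1 and 91.2 at 24 h, and 39.0 and 48.7 at 72 h, with each KO library above its WT counterpart, at 72 h within counting error. P4ha2 ranged over 17.8 to 61.0 CPM in endothelial cells, reached 8.05 CPM at most in monocyte/macrophage cells and was not measured in neutrophils.

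Of the secreted and regulatory members, Adm, a vasodilator peptide, was at 19.7 and 13.9 CPM after sham, 60.9 and 48.2 at 24 h, and 109 and 51.1 at 72 h in endothelial cells. The WT library at 72 h was highest. Fibroblast Adm ranged over 21.5 to 97.4 CPM, and Adm was never measured in neutrophils. Ddit4, an inhibitor of mTORC1, was at 92.6 and 137 CPM after sham, 136 and 106 at 24 h, and 68.3 and 54.4 at 72 h in endothelial cells, lowest in the 72 h pair. Ddit4 ranged over 21.5 to 45.4 CPM in fibroblasts, 5.66 to 29.2 CPM in monocyte/macrophage cells and 9.16 to 48.3 CPM in neutrophils. Ankrd37, an ankyrin-repeat protein, was at 61.0 and 70.2 CPM after sham, 74.9 and 109.6 at 24 h, and 60.4 and 60.8 at 72 h in endothelial cells, highest in KO at 24 h. In neutrophils Ankrd37 ranged over 22.3 to 97.1 CPM and in monocyte/macrophage cells over 22.5 to 80.2 CPM, the first highest at 72 h and the second at 24 h. Ndrg1, a stress-response gene, ranged over 107 to 169.5 CPM in endothelial cells, 10.3 to 43.8 CPM in fibroblasts, 18.0 to 62.3 CPM in monocyte/macrophage cells and 25.3 to 40.2 CPM in neutrophils. Mxi1 ranged over 16.5 to 56.1 CPM, 14 to 47.9 CPM, 22.8 to 88.4 CPM and 46.0 to 76.7 CPM in the same order, and Kdm3a, a histone demethylase, over 18.9 to 28.2 CPM, 9.34 to 19.0 CPM, 12.4 to 21.1 CPM and 32.4 to 58.8 CPM.

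Between 24 h and 72 h after ligation the classes parted. In WT endothelial cells 11 of 33 measured members were higher at 72 h (background 9.59% higher) and 6 lower (background 23.2% lower). In KO 8 of 32 were higher (background 9.8%) and 7 lower (background 20%), so that the share of lower members was near or under the background in both. The glycolysis median was 0.54 (0.39 to 0.82) and 0.53 (0.16 to 0.68), and that of the other hypoxia members -0.38 (-0.77 to 0.05) and -0.43 (-0.82 to 0.00), against -0.16 and -0.14 over all genes. Egln3, Tpi1, Pkm, Pgk1 and Eno1 had the highest log2 ratios, from 1.61 (0.98 to 2.26) to 1.07 (0.89 to 1.25) in WT. Pfkfb3, Hilpda, Mxi1, Egln1 and Ddit4 had the lowest, from -1.47 (-2.26 to -0.75) to -0.99 (-1.31 to -0.69). In KO, Slc16a3, Eno1, Pgam1, Tpi1 and Pgk1 had the highest, from 1.19 (0.68 to 1.71) to 0.74 (0.54 to 0.94), and P4ha2, Egln1, Ddit4, P4ha1 and Ankrd37 had the lowest, from -1.77 (-2.49 to -1.12) to -0.85 (-1.24 to -0.47). The WT result rests on few large cells: 1 cluster led by Fabp4, Ctla2a, Tm4sf1 and Apln gave 68 of 259 cells but 905273 of 1640234 UMIs at 72 h. With every cell weighed alike, the WT glycolysis median was 0.13, the KO median 0.60 and the WT count of higher members 1. No background is given for that setting. Of the 652 KO cells at 72 h, 414 lay in a cluster led by Fabp4, Ly6c1 and Sparc with a median of 1123 UMIs per cell. That cluster held 122 KO cells at 24 h. Equal weight thus rests the KO median at 72 h largely on shallow cells, and their part in it was not tested. The endothelial markers themselves summed to 50058 and 45401 CPM at 24 h and to 24606 and 18600 at 72 h, so the class was not alike at the 2 times. Markers of red cells and of monocyte/macrophage cells also moved with time in this class. Red-cell markers summed to 29288 and 12558 CPM at 72 h against 30.4 and 2765 at 24 h. Monocyte/macrophage markers summed to 827 (21 of 23 detected, Ear2 and Adgre4 at 0) and 4344 CPM (all 23 detected) against 121 (17 detected) and 284 (19 detected) at 24 h, where Gpnmb, Treml4 and Adgre4 were at 0 in both, Ms4a7, Trem2 and Ear2 in WT and Cx3cr1 in KO. Leaving out the barcodes with over 5% hemoglobin UMIs moved no median or count of the members here either. The part of the remaining red-cell RNA and of monocyte/macrophage RNA in these ratios was not tested.

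In WT fibroblasts 15 of 34 measured members were lower at 72 h than at 24 h, beside 32.1% of all genes lower, and 7 were higher, beside 13%. In KO 7 of 35 were lower, beside 23.1%, and 6 higher, beside 16.1%, so that both KO shares were near the background. The glycolysis median was 0.09 (-0.10 to 0.31) and 0.12 (-0.16 to 0.23), and that of the other hypoxia members -0.80 (-1.18 to -0.34) and -0.10 (-0.42 to 0.18). Over all genes the medians were -0.26 and -0.18. P4ha2, Tpi1, Eno1, Gapdh and Pkm had the highest log2 ratios, from 1.75 (1.41 to 2.10) to 0.74 (0.64 to 0.85) in WT. Ndrg1, Hk2, Hilpda, Ero1l and Egln3 had the lowest, from -2.09 (-2.70 to -1.52) to -1.57 (-2.46 to -0.75). In KO, Ankrd37, Gapdh, Hif1a, Tpi1 and Pfkfb3 had the highest, from 0.94 (0.24 to 1.68) to 0.65 (-0.19 to 1.53), and Adm, Hk2, Slc2a1, Ddit4 and Hk1 had the lowest, from -2.02 (-2.45 to -1.61) to -0.83 (-1.3 to -0.37). Hk2 and Slc2a1 were thus below their 24 h level in both genotypes while Tpi1 and Gapdh were above it. The WT median of the other hypoxia members was -0.05 with every cell weighed alike and -0.20 with at least 200 UMIs per pair. With that minimum 6 WT and 4 KO members were lower, and no background is given for it. Monocyte/macrophage markers in fibroblasts summed to 275 (21 of 23 detected, Ear2 and Adgre4 at 0) and 443 CPM (20 detected, Ms4a7, Ear2 and Folr2 at 0) at 24 h and to 417 and 9243 (all 23 detected) at 72 h. Smooth muscle markers summed to 31.4 and 163 CPM at 24 h (5 of 8 detected in each, Cnn1, Actg2 and Rergl at 0) and to 3890.1 and 1449 at 72 h (7 detected, Rergl at 0). The part of either was not tested.

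Most members were lower at 72 h than at 24 h in monocyte/macrophage cells. In WT 28 of 39 measured members were lower at 72 h (background 16.5% lower) and 1 was higher (background 21.9%), the hexokinase Hk3. In KO 29 of 39 were lower (background 6.57%) and 1 higher (background 20%), Pfkfb4. The median of the other hypoxia members was -1.34 (-1.70 to -1.07) and -1.11 (-1.3 to -0.86) and that of the glycolysis members -0.69 (-0.81 to -0.54) and -0.92 (-1.02 to -0.86), while all genes had 0.04 and 0.14. Egln3, Hilpda, Ero1l, Hk2 and Ddit4 had the lowest log2 ratios, from -3.32 (-3.58 to -3.06) to -2.36 (-2.66 to -2.07) in WT. Hk3, Pfkfb4, Aldoc, Bnip3l and Pkm had the highest, from 0.75 (0.53 to 0.96) to -0.45 (-0.48 to -0.42). In KO, Egln3, Hilpda, Ero1l, Slc2a1 and P4ha2 had the lowest, from -2.19 (-2.54 to -1.86) to -1.84 (-2.54 to -1.19), and Pfkfb4, Slc2a3, Hk3, Kdm3a and Bnip3l had the highest, from 0.59 (0.33 to 0.84) to -0.24 (-0.34 to -0.14). Neutrophil markers in the class summed to 238 CPM in WT (14 of 16 detected, Ly6g and Ngp at 0) and 1914 in KO (all 16 detected) at 72 h, below the 24 h sums above, and their part was not tested.

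In WT neutrophils 19 of 35 measured members were lower at 72 h (background 12.5% lower) and 1 higher (background 48%). In KO 11 of 35 were lower (background 10.5%) and 2 higher (background 46.2%). The glycolysis median was -0.54 (-0.93 to -0.25) and -0.26 (-0.65 to -0.02), that of the other hypoxia members -0.70 (-1.03 to -0.38) and 0.01 (-0.41 to 0.45). All genes had a median of 0.54 and 0.51 here, the largest shift among the comparisons, and relative to it the glycolysis medians were -1.08 and -0.76 and the other medians -1.24 and -0.50. Egln3, Ero1l, Ddit4, Pfkfb3 and Pfkp had the lowest log2 ratios, from -2.79 (-3.09 to -2.50) to -1.85 (-2.17 to -1.54) in WT. Ankrd37, Ndrg1, Pfkfb4, Ldha and Mxi1 had the highest, from 1.64 (1.31 to 1.97) to 0.10 (-0.20 to 0.40), but Ndrg1 turned to -0.043, Pfkfb4 to -0.10 and Ldha to -0.24 relative to the median gene. In KO, Ddit4, Egln3, Hk3, Slc2a1 and Ero1l had the lowest, from -1.87 (-3.09 to -0.87) to -1.05 (-1.41 to -0.71), and Ankrd37, Higd1a, Fam162a, Ldha and Pdk1 had the highest, from 1.11 (0.72 to 1.47) to 0.29 (-0.50 to 0.99). The neutrophil markers themselves summed to 151900 and 179483 CPM at 24 h and to 73415 and 68572.5 at 72 h. Monocyte/macrophage markers in neutrophils were at 1618 (21 of 23 detected, Mrc1 and Folr2 at 0) and 2264 CPM (21 detected, Gpnmb and Adgre4 at 0), below the 24 h sums above. The part of either in the ratios of neutrophils was not tested.

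KO and WT libraries were first compared after sham. In endothelial cells 2 of 33 measured members were higher and 2 lower in KO, which is 12.1% of them beside 6.43% of all genes past 1.5-fold in either direction. P4ha1, P4ha2, Ddit4, Pfkp and Ldha had the highest log2 ratios, from 1.04 (0.87 to 1.21) to 0.23 (0.16 to 0.30). Pfkfb3, Slc2a3, Slc16a3, Adm and Pdk1 had the lowest, from -1.19 (-1.47 to -0.92) to -0.36 (-0.69 to -0.03). P4ha1 was at 43.8 CPM in WT and 90.2 in KO. In fibroblasts 2 of 34 were higher and 2 lower, or 11.8% (background 8.65%). Slc16a1, Slc2a1, Hk2, Ddit4 and Egln1 had the highest log2 ratios, from 1.16 (0.55 to 1.80) to 0.48 (0.15 to 0.81). Pfkfb3, Ankrd37, Mxi1, Eno1 and Bnip3l had the lowest, from -1.08 (-1.90 to -0.30) to -0.22 (-0.38 to -0.07). In monocyte/macrophage cells 1 of 36 passed the limit (background 6.8%). Hk2, P4ha1, Aldoc, Hk3 and Ddit4 had the highest log2 ratios, from 0.80 (0.68 to 0.91) to 0.17 (-0.22 to 0.55). Egln3, Eno1, Ankrd37, Pdk1 and Bnip3l had the lowest, from -0.46 (-1.18 to 0.23) to -0.17 (-0.31 to -0.03). In neutrophils 3 of 33 were lower and none higher, a share near the background of 9.1%. P4ha1, Ndrg1, Hk2, Pfkfb4 and Pfkfb3 had the highest log2 ratios, from 0.40 (-0.12 to 0.93) to 0.27 (-0.13 to 0.67). Hilpda, Pfkl, Pfkp, Slc16a3 and Ero1l had the lowest, from -1.10 (-1.55 to -0.67) to -0.54 (-1.01 to -0.08).

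At 24 h after ligation the members' share past the limit in neutrophils was 25.7%, above the background of 15.5% in either direction. A background of lower genes alone, 5.67%, was taken for this KO against WT comparison only, so the others have no counterpart to it. Of 35 measured members 9 were lower in KO and none higher. Those lower were Egln3 at -1.0 (-1.10 to -0.90), Ero1l at -0.82 (-0.93 to -0.71), Higd1a at -0.82 (-0.99 to -0.65), Hk2 at -0.79 (-0.89 to -0.69), Fam162a at -0.75 (-0.91 to -0.59), Hk1 at -0.69 (-0.91 to -0.47), Pfkp at -0.69 (-0.83 to -0.55), Hilpda at -0.61 (-0.69 to -0.53) and Egln1 at -0.59 (-0.89 to -0.29). The highest were Pfkfb4, Hk3, Ndrg1, Ankrd37 and Aldoa, from 0.52 (0.33 to 0.71) to 0.26 (0.20 to 0.31). Hif1a itself had a ratio of -0.48 (-0.59 to -0.37). None of the 9 passed 2-fold. The median of the other hypoxia members was -0.44 (-0.59 to -0.24) and that of the glycolysis members -0.18 (-0.29 to -0.05), with 0.06 over all genes. Monocyte/macrophage markers in these neutrophils summed to 3036 CPM in WT (22 of 23 detected, Folr2 at 0) and 5643 in KO (all 23 detected), and their part was not tested.

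In KO against WT monocyte/macrophage cells at 24 h, 1 of 39 members was higher and 3 lower past 1.5-fold, at the level of the background (10.6%), so the count is no result about the members. Of the 22 measured glycolysis members 13 had a ratio above 0 and 9 below, most of them within the limit. Intervals lay above 0 for Aldoa at 0.49 (0.46 to 0.52), Tpi1 at 0.47 (0.43 to 0.52), Eno1 at 0.42 (0.39 to 0.46), Pkm at 0.37 (0.34 to 0.40), Ldha at 0.36 (0.33 to 0.40) and Gpi1 at 0.35 (0.30 to 0.40). Aldoc, Aldoa, Tpi1, Eno1 and Pkm had the 5 highest ratios, from 0.89 (0.39 to 1.42) to 0.37 (0.34 to 0.40). Intervals lay below 0 for the sensor Egln3 at -0.65 (-0.82 to -0.48), Hif1a at -0.44 (-0.49 to -0.39), and in the glycolysis list for Hk2 at -0.39 (-0.47 to -0.32), Pfkfb3 at -0.46 (-0.64 to -0.27), Pfkp at -0.23 (-0.35 to -0.11) and Slc2a1 at -0.26 (-0.36 to -0.15). The genes of these intervals were chosen after their values were seen. Slc2a3, Mxi1, Egln3, Ddit4 and Pfkfb3 had the 5 lowest ratios, from -1.64 (-2.15 to -1.13) to -0.46 (-0.64 to -0.27). The glycolysis median was 0.17 (0.03 to 0.28) and that of the other hypoxia members -0.15 (-0.33 to -0.01), with -0.12 over all genes. Neutrophil markers in the class were at 2451 CPM in WT and 3685 in KO, as given above.

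**Figure D4:**
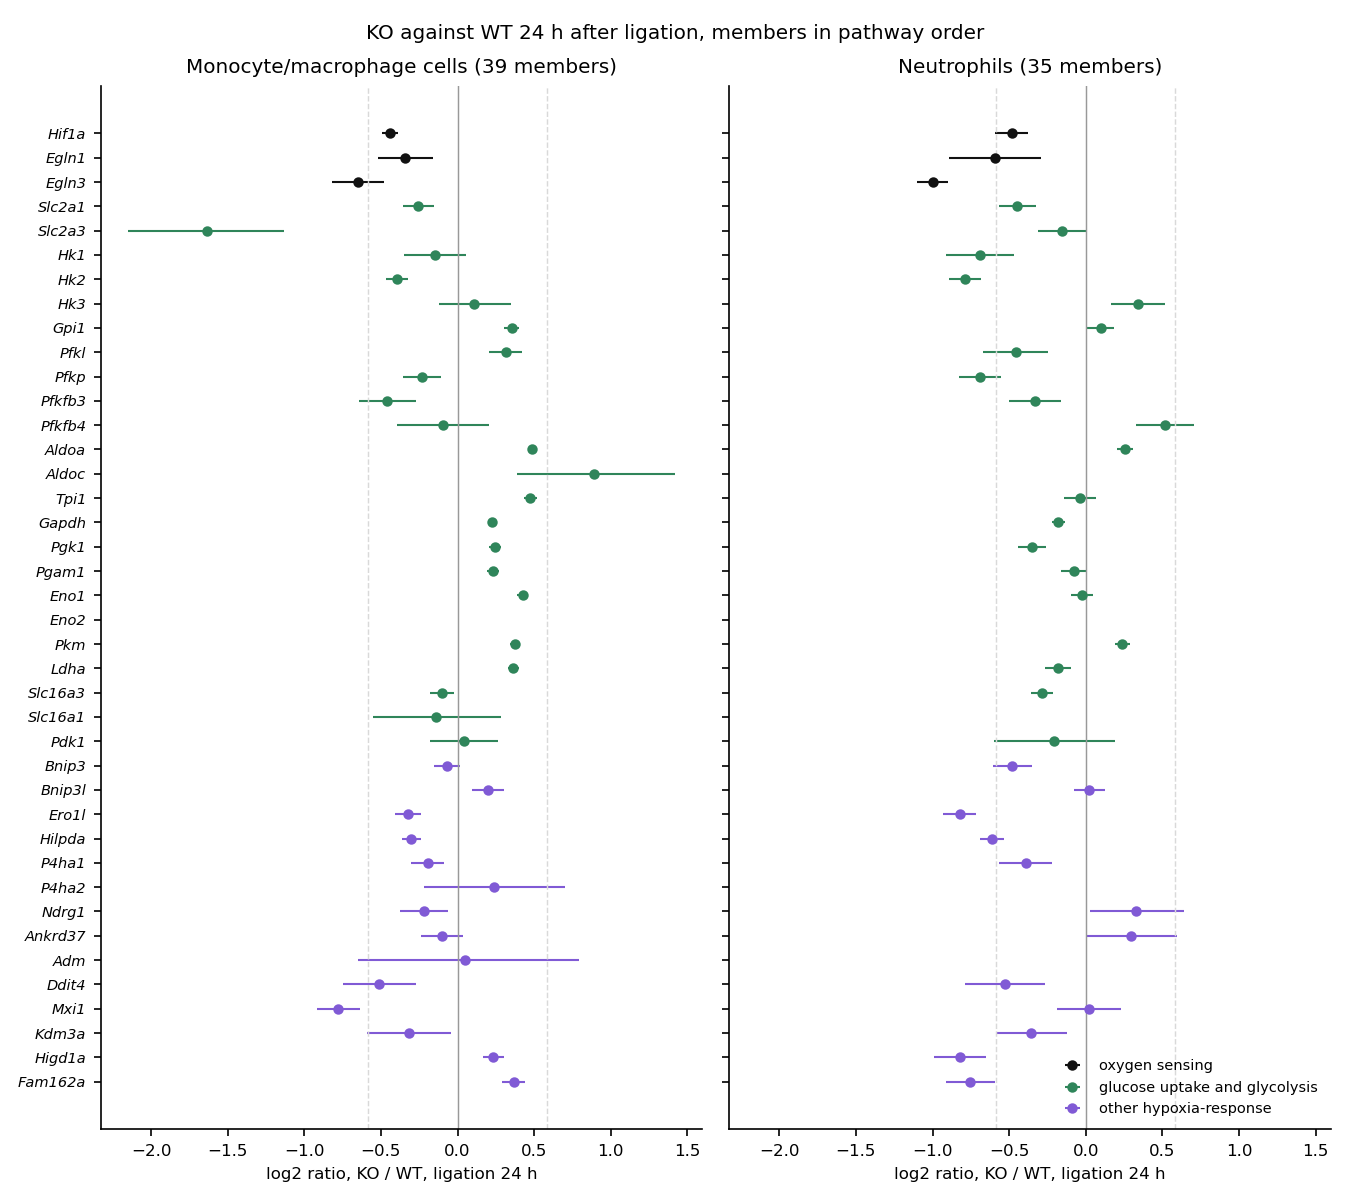
Log2 ratio of CPM in KO against WT at 24 h after ligation for each measured member, in pathway order, in monocyte/macrophage cells (39 members) and neutrophils (35 members); bars are 95% counting intervals and dashed lines mark 1.5-fold. From Aldoa to Ldha the monocyte/macrophage points lie above 0 (Aldoa 0.49, Ldha 0.36) and those of Hk2, Pfkp and Pfkfb3 below it, while Hif1a is below 0 in both classes (-0.44 and -0.48).

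In endothelial cells at 24 h 2 of 34 members were higher and 2 lower in KO, a share near the background of 10.8%. P4ha1, P4ha2, Ankrd37, Aldoa and Pfkl had the highest log2 ratios, from 0.78 (0.48 to 1.08) to 0.36 (0.09 to 0.62). Hk2, Egln3, Hif1a, Pfkfb3 and Ero1l had the lowest, from -1.35 (-2.41 to -0.40) to -0.42 (-0.78 to -0.08). In fibroblasts 3 of 33 were lower and none higher, under the background of 14.8%. Eno1, Tpi1, Higd1a, Pgam1 and Pkm had the highest log2 ratios, from 0.36 (0.19 to 0.52) to 0.24 (0.13 to 0.36). Hilpda, Pfkfb3, Egln3, Ndrg1 and Hif1a had the lowest, from -0.87 (-1.17 to -0.57) to -0.56 (-0.83 to -0.30). Hif1a had a ratio below 0 in all 4 classes at this time, past 1.5-fold in none, at -0.48 in endothelial cells, -0.56 in fibroblasts, -0.44 in monocyte/macrophage cells and -0.48 in neutrophils. These 4 values come from the same 2 libraries and are not independent.

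At 72 h the KO library was shallow, so ratios were also taken from cells above a common UMI minimum per class (1086 UMIs in endothelial cells, 1851 in fibroblasts, 4783 in monocyte/macrophage cells and 1506 in neutrophils). With it the counts past 1.5-fold were 4 in endothelial cells, 8 in fibroblasts, 5 in monocyte/macrophage cells and 5 in neutrophils. No background is given with this minimum, so these counts are no result about the members. Of the members measured both ways (32, 34, 39 and 33 in the same order), 2 moved by over 1.5 times, Slc2a3 and Adm in monocyte/macrophage cells. The minimum did not remove RNA of other classes. With it, monocyte/macrophage markers still summed to 835 CPM in WT and 3847 in KO endothelial cells, and to 417 and 9534 in fibroblasts. Ratios that stayed are therefore no check on such RNA. Median UMIs per fibroblast were 1090.0 in KO and 10532 in WT, and per monocyte/macrophage cell 1402 and 11994. In endothelial cells 3 of 32 members were higher and 2 lower in KO (background 15.1%), a share near the background. Pdk1, Mxi1, Hilpda, Slc16a3 and P4ha1 had the highest log2 ratios, from 1.02 (0.22 to 1.84) to 0.32 (-0.21 to 0.85). Adm, P4ha2, Egln3, Bnip3l and Ndrg1 had the lowest, from -1.09 (-1.52 to -0.66) to -0.35 (-0.67 to -0.03). With the minimum, Pdk1 was at 1.10 (0.27 to 1.94), Hilpda at 0.55 (-0.06 to 1.15), Adm at -0.92 (-1.37 to -0.48) and P4ha2 at -1.36 (-2.28 to -0.52). Neutrophil markers in this class summed to 191 CPM in WT (10 of 16 detected, Ly6g, Cd177, Ltf, Camp, Ngp and Stfa2l1 at 0) and 4179 in KO (15 detected, Ltf at 0), and their part was not tested.

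In fibroblasts 8 of 35 members were higher and 2 lower in KO at 72 h, at the level of a wide background (30.4%). Ndrg1, Pfkfb4, Ankrd37, Ero1l and Mxi1 had the highest log2 ratios, from 1.72 (1.14 to 2.33) to 0.86 (0.31 to 1.43). Adm, P4ha2, Higd1a, Hif1a and Fam162a had the lowest, from -1.39 (-1.82 to -0.97) to -0.37 (-0.52 to -0.22). With the minimum, Ndrg1 was at 1.53 (0.90 to 2.18), Ankrd37 at 0.72 (-0.09 to 1.53), Ero1l at 0.62 (0.22 to 1.02), Adm at -1.52 (-2.04 to -1.02) and P4ha2 at -1.33 (-1.66 to -1.0). With every cell weighed alike, Mxi1 turned to -0.48 and Hif1a to 0.075. Monocyte/macrophage markers in these fibroblasts summed to 417 CPM in WT and 9243 in KO (all 23 detected in each), and neutrophil markers to 239 (12 of 16 detected, Ly6g, Ltf, Ngp and Stfa2l1 at 0) and 2646 (15 detected, Camp at 0). Their part was not tested.

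In monocyte/macrophage cells at 72 h 4 of 39 members were higher and none lower in KO, near the background of 11.2%. Ddit4, Slc2a3, Hilpda, Kdm3a and Mxi1 had the highest log2 ratios, from 1.16 (0.81 to 1.5) to 0.55 (0.36 to 0.75). Hk3, Adm, Pkm, P4ha2 and Pgam1 had the lowest, from -0.40 (-0.58 to -0.22) to -0.15 (-0.20 to -0.11). With the minimum, Hilpda was at 0.64 (0.49 to 0.79) and Ddit4 at 0.98 (0.57 to 1.39), but Slc2a3 turned to -0.27 (-1.26 to 0.62) and Adm, from few UMIs, moved to -2.14 (-4.47 to -0.51). Neutrophil markers in the class summed to 238 CPM in WT and 1914 in KO, and with the minimum to 196 and 553. Their part was not tested. Hif1a, below 0 at 24 h, had a ratio of 0.42 (0.35 to 0.48) here and 0.52 (0.45 to 0.60) with the minimum. In neutrophils 3 of 33 were higher and none lower (background 10.2%), again near it. Pfkl, Pfkfb3, Kdm3a, P4ha1 and Higd1a had the highest log2 ratios, from 0.69 (0.04 to 1.33) to 0.49 (0.13 to 0.84). Hk3, Slc2a1, Hk1, Ankrd37 and Pkm had the lowest, from -0.39 (-0.99 to 0.18) to -0.15 (-0.28 to -0.02). With the minimum, Pfkl was at 0.76 (0.09 to 1.41), Higd1a at 0.62 (0.25 to 0.98) and Hif1a at 0.48 (0.18 to 0.77).

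The classes hold several clusters, and the share of a class that a cluster gives differs between libraries. The summed lists were therefore also read within clusters of at least 50 cells per library. The monocyte/macrophage cluster led by Arg1, Fn1 and Ccl24 held 9995 and 9476 CPM after sham, 13505 and 17810.3 at 24 h, and 10426 and 10613 at 72 h of glycolysis members. The same cluster held 1017 and 953 CPM after sham, 2244 and 2319.5 at 24 h, and 1126 and 1327 at 72 h of the other hypoxia members. Its 24 h pair was highest in both lists, KO above WT in glycolysis. The cluster led by Lyz2, S100a4, Plac8 and Ccr2 held 7560.1 and 7041 CPM after sham, 9399.5 and 10224 at 24 h, and 8867 and 8590.4 at 72 h of glycolysis members. The order was the same over a smaller range. In the cluster led by C1qa, C1qc and Mrc1, glycolysis stood at 4094 and 4210.1 CPM after sham and at 8709 and 9978 at 24 h, and in KO at 3275 at 72 h. The clusters led by Apoe, C1qb and Ms4a7 and by Ms4a4c, Ifi27l2a and Irf7 held 711 and 551 WT cells and 545 and 214 KO cells at 72 h. They were at 8543 and 7074 CPM of glycolysis members in WT and at 7898 and 6179 CPM in KO. A further cluster led by Lyz2, Apoe and C1qb held 1080 KO cells at 72 h and at most 45 from any other library, at 7173 CPM.

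Among neutrophils, the cluster led by S100a8, S100a9 and Il1b was present in every library. Its other hypoxia members summed to 702 and 593 CPM after sham, 1508 and 1239 at 24 h, and 1257 and 1282 at 72 h, so within it the ligation libraries of both times were above sham. Its glycolysis members summed to 4984 and 4475 CPM after sham, 5892 and 5868 at 24 h, and 6183 and 5923 at 72 h. A second cluster, led by S100a9, S100a8, Cxcl2 and Wfdc21, was found mainly at 24 h and was higher in both lists. It held 8544 and 8916 CPM of glycolysis members and 2158 and 1815 of the others, with Egln3 at 457 and 297. The cluster led by Slfn4 and Isg15, genes induced by interferon, held 2757 CPM of the other hypoxia members in WT and 1394 in KO at 24 h. KO was thus below WT in this list in those 3 clusters at 24 h, while the cluster led by S100a9, S100a8 and Retnlg held 762 in WT and 869 in KO. The make-up also differed: of 1156 WT and 3407 KO neutrophils at 24 h, the Wfdc21 cluster gave 582 and 1062. The Il1b cluster gave 324 and 1311, the Retnlg cluster 154 and 793, and the Slfn4 cluster 96 and 241. The part of this make-up in the class ratios was not tested.

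**Figure D5:**
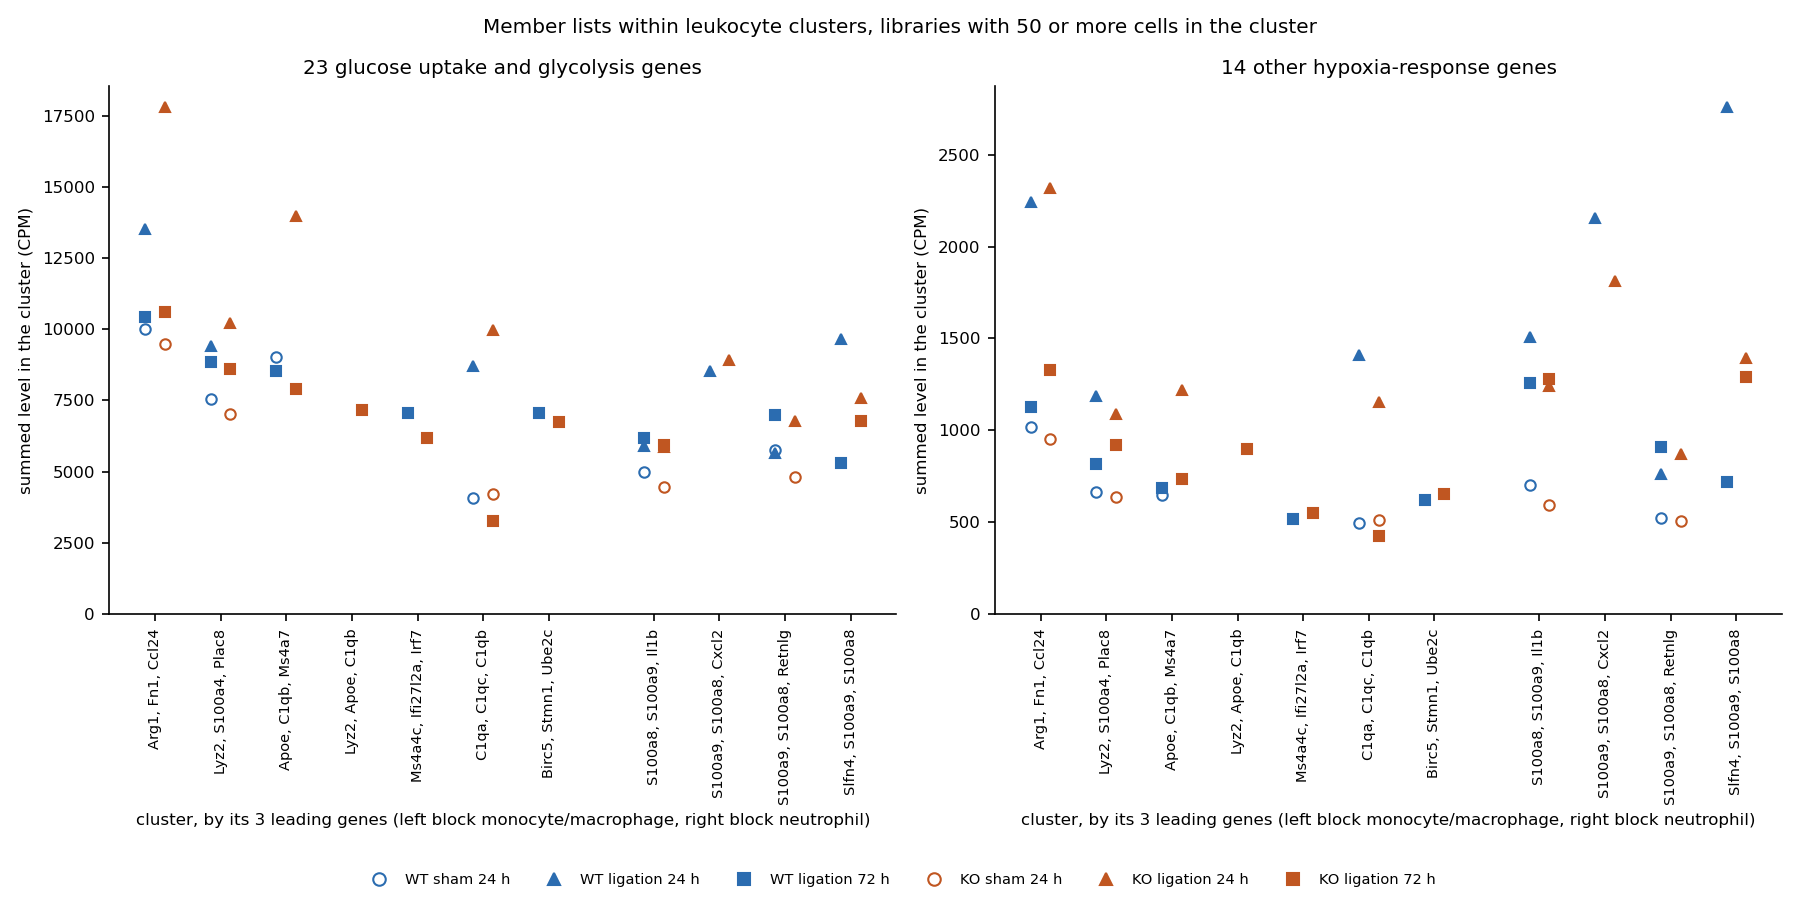
Summed CPM of the glycolysis members and of the other hypoxia members in monocyte/macrophage and neutrophil clusters, each given by its 3 leading genes, by library (clusters with at least 50 cells in the library; circles sham, triangles 24 h, squares 72 h). In the Arg1, Fn1 and Ccl24 cluster the glycolysis sum runs from 9476 (KO, sham) to 17810.3 CPM (KO, 24 h).

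In the endothelial cluster led by Fabp4, Cd36 and Ly6c1, glycolysis members summed to 1981 and 2039 CPM after sham, 2642 and 3076 at 24 h and 2496 in WT at 72 h. Within it WT cells at 72 h were not above WT cells at 24 h. The Apln cluster named above was higher throughout, at 3089 in KO after sham, 6132 and 7024 at 24 h and 8296 and 7569.8 at 72 h. In fibroblasts the cluster led by Dcn, Gsn and Clec3b held 2339.9 and 2677 CPM after sham and 2957 and 3396 at 24 h. A cluster led by Cxcl5, Mt2 and Timp1 held 7016 and 6483 at 24 h, with Hilpda at 202 and 72.8 CPM. At 72 h the cluster led by Col1a1, Col3a1 and Postn held 6804 and 6453. A further cluster led by Dcn, Gsn, Mgp, Col3a1 and Apoe held 396 KO cells at 72 h and at most 13 from any other library. Its cells had a median of 1194 UMIs. The 24 h difference within the Dcn, Gsn and Clec3b cluster was smaller than that of the whole class.

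A cluster named dendritic-like, outside the 4 classes, passed 100 cells in 4 libraries: WT sham, KO at 24 h, WT at 72 h and KO at 72 h. It was led by Cd74, H2-Ab1 and H2-Aa, with no dendritic marker among its leading genes. Dendritic markers summed to 579, 558, 632 and 735 CPM in that order, and monocyte/macrophage markers to 10564, 16383, 14390 and 13024.5. The name is therefore uncertain. In this cluster Gapdh was at 1866, 3209, 1935 and 1821 CPM in the same order. Hilpda was at 27.2, 209, 32.6 and 45.3 CPM. The KO library at 24 h was the highest of the 4 for both genes.

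Genes of the same pathway outside the 40 were read from 5 fixed lists. Of 22 further hypoxia-response genes, 6 of 13 measured were higher at 24 h in WT endothelial cells and 4 of 13 in KO, beside the 10.2% and 9.53% of all genes. Angptl4, a lipase inhibitor, had log2 ratios of 2.55 (2.32 to 2.79) and 1.32 (1.07 to 1.57). In fibroblasts 9 of 18 and 6 of 17 were higher (background 12.4% and 11%), Angptl4 and Vegfa among them. Vegfa, the angiogenic factor, had 2.28 (1.98 to 2.58) and 1.28 (1.0 to 1.56) there. In monocyte/macrophage cells 7 of 14 and 6 of 15 were higher (background 5.9% and 4.09%), Vegfa at 1.83 (1.61 to 2.07) and 1.29 (1.0 to 1.59). In neutrophils 4 of 9 and 1 of 9 were higher (background 10.3% and 6.6%), Gys1, a glycogen synthase, at 1.34 (0.71 to 2.02) and 1.39 (0.55 to 2.36). At 72 h 9 of 15 in WT and 8 of 16 in KO monocyte/macrophage cells were lower than at 24 h (background 16.5% and 6.57%). In fibroblasts 9 of 16 and 7 of 15 were lower (background 32.1% and 23.1%), but the collagen crosslinking enzyme Loxl2 had 1.75 (1.55 to 1.94) and 0.91 (0.68 to 1.14).

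Of 14 genes of the HIF machinery, none was higher at 24 h in endothelial or monocyte/macrophage cells of either genotype. The background was 10.2% and 9.53% in endothelial cells and 5.9% and 4.09% in monocyte/macrophage cells. For so few genes none is near those shares, so the count is no result about the list. List medians were 0.00 and 0.05 in endothelial cells and -0.05 and -0.18 in monocyte/macrophage cells. Epas1, which encodes HIF-2alpha, was lower at 72 h than at 24 h in endothelial cells, at -1.31 (-1.47 to -1.16) and -1.51 (-1.71 to -1.31). Of 25 genes of pyruvate oxidation and the citric acid cycle, neutrophils had 14 of 17 measured higher at 72 h in WT and 15 of 18 in KO, beside 48% and 46.2% of all genes. Their medians were 1.21 (0.80 to 1.64) and 1.17 (0.61 to 1.64), above the 0.54 and 0.51 of all genes, with Suclg1 at 2.27 (1.76 to 2.80) and 1.76 (1.23 to 2.26) and Pdk3, a brake on pyruvate oxidation, lower at -1.0 (-1.73 to -0.33) and -0.71 (-1.87 to 0.25). At 24 h against sham 7 of 17 of these genes were lower in WT neutrophils and 2 of 18 in KO (background 24.4% and 16%). None of the 7 pentose phosphate genes passed 1.5-fold in monocyte/macrophage cells at 24 h in either genotype, with medians of 0.05 and 0.14. The background there was 5.9% and 4.09% higher and 12.4% and 23.8% lower, and 7 genes are too few for a result. Among 20 further glycolysis genes, 5 of 6 measured in WT fibroblasts and 4 of 6 in KO were lower at 24 h (background 15.5% and 26.3%), Pfkm, the muscle phosphofructokinase, at -1.11 (-2.09 to -0.23) and -0.96 (-2.02 to -0.01). Bpgm, a red-cell enzyme, had 3.43 (2.86 to 4.04) and 1.87 (1.29 to 2.48) at 72 h against 24 h in endothelial cells, where the red-cell markers given above moved the same way.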

How the data were processed

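Ventricular non-cardiomyocytes of 6 libraries (1 per group, 4 mice pooled in each) were measured by 10x 3′ single-cell RNA sequencing. The authors deposited 1 filtered matrix of raw UMI counts per library, made with Cell Ranger 6.0.0 on mm10, per the submitters' processing notes. Each matrix holds whole-number counts of genes by cell barcodes. No deposited cell annotation was used.

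Cells with at least 200 genes and at most 20% mitochondrial UMIs were kept. Scrublet scores were used by rank to remove 0.8% of barcodes per 1000 cells, so the removed share was set and not called. Each cell's counts were brought to a sum of 10000 and logged. After leaving out mitochondrial, ribosomal, hemoglobin and listed genes and Trpm4, 2000 variable genes gave 30 principal components, 20 neighbours and Leiden clusters at resolution 1, for all libraries together and without batch correction. Of 36 clusters, 5 (868 cells) stayed unnamed, and 399 cells formed a cardiomyocyte-like cluster. Clusters took names from fixed marker lists.

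Counts were then summed per class (at least 100 cells in the library) and scaled to CPM. A ratio has the exact conditional 95% interval of 2 Poisson counts, and a count of 0 was set to 3 counts, giving a bound. Intervals cover counting error only. With 1 library per group no test was run. Members and pathway lists were chosen with earlier results of these data known. All members may be named. Values in all 6 libraries are given in a class for members with at least 100 CPM there in 1 library or more and a 1.5-fold difference in 1 comparison or more, and up to 5 highest and 5 lowest ratios of each comparison are named, as are up to 3 of each end of a pathway list, except some items that are not reported here. Alternatives were the Leiden resolution (0.5 and 2), no doublet removal, at most 10% mitochondrial UMIs, a UMI minimum per class (the 10th percentile in WT at 72 h), equal weight for every cell, centring on the median gene, listed genes allowed in clustering, pair minimums of 1 and 200 UMIs and a 2-fold limit. A further one, leaving out 132 barcodes with over 5% hemoglobin UMIs, was chosen after seeing the data. The ratio code was checked on simulated data. Python 3.11.15, numpy 2.4.6, scipy 1.17.1, pandas 2.3.3, scanpy 1.11.5, leidenalg 0.10.2, python-igraph 0.11.9, scikit-learn 1.9.0 and matplotlib 3.10.9 were used. Promoter sequences are those of RefSeq (GRCm38.p6), and windows that overlap an annotated exon are not shown.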

Additional observations from a re-analysis of the deposited data

Results flagged for a closer look

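Higd1a, the mitochondrial protein gene, went opposite ways between 24 h and 72 h in neutrophils of the 2 genotypes. Its log2 ratio was -0.49 (-0.74 to -0.24) in WT and 0.82 (0.51 to 1.12) in KO, with 1 library at each point, and the difference between genotypes was not tested.

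The glycolysis members as a list went opposite ways between 24 h and 72 h in different cell classes. Their median log2 ratio was 0.54 (0.39 to 0.82) in WT and 0.53 (0.16 to 0.68) in KO endothelial cells. It was -0.69 (-0.81 to -0.54) and -0.92 (-1.02 to -0.86) in monocyte/macrophage cells, and -0.54 (-0.93 to -0.25) and -0.26 (-0.65 to -0.02) in neutrophils. Each difference between classes comes from the same 4 libraries and was not tested. The WT endothelial median is 0.13 when every cell counts alike.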

How the results depend on the processing

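Median log2 ratios of the measured members moved by less than their counting interval in 298 combinations of class, comparison and setting and by more in 10. Medians of the glycolysis list and of the other hypoxia list stayed in 589 and moved in 27. Counts of members past the limit stayed within 1.5 times in 287 and moved in 49. Single members stayed in 2389, moved in 124 and reversed in 7. Every reported direction rests on 1 library per group, and counting error is all the intervals hold. No paired analysis was possible because each group is 1 library. The setting without barcodes rich in hemoglobin was added after seeing the data and moved no median or count of the members.

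Centred on the median gene, the median over all measured members was 0.81 for 24 h against sham in KO fibroblasts, 1.20 in KO monocyte/macrophage cells and 0.91 in WT neutrophils, and for 72 h against 24 h -1.10 in KO monocyte/macrophage cells, -1.19 in WT and -0.71 in KO neutrophils. With every cell weighed alike it was 0.79 (WT) and 1.07 (KO) for 24 h against sham and -0.83 (WT) for 72 h against 24 h in monocyte/macrophage cells. With at least 200 UMIs it was 0.29 for 72 h against 24 h in WT fibroblasts.

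Counts of members past the limit, KO against WT, were as follows. They show only how the counts depend on the setting. No background is given for these settings, so they are no result about the members. Without doublet removal 8 endothelial sham, 1 neutrophil sham and 5 neutrophil 72 h members passed. With every cell weighed alike 7, 7 and 11 endothelial members passed after sham, at 24 h and at 72 h. With at least 1 UMI 7 (24 h) and 12 (72 h) endothelial, 7 (sham) and 8 (24 h) fibroblast, 4 monocyte/macrophage sham and 5 neutrophil sham members passed. With at least 200 UMIs 2 (24 h) and 1 (72 h) endothelial, 0, 1 and 4 fibroblast (sham, 24 h, 72 h) and 0 neutrophil members at 72 h passed. The UMI minimum gave 5 neutrophil members after sham and 5 at 72 h. At 2-fold 1 (24 h) and 3 (72 h) endothelial, 0 (24 h) and 5 (72 h) fibroblast, 0, 1 and 2 monocyte/macrophage and 1, 0 and 0 neutrophil members passed.

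Counts over time were as follows, also without a background for these settings and so no result about the members. At 2-fold, 24 h against sham, 9 (WT) and 9 (KO) endothelial, 10 and 9 fibroblast, 12 and 15 monocyte/macrophage and 13 KO neutrophil members were higher. At 2-fold, 72 h against 24 h, 5 and 1 endothelial members were higher and 8 and 4 fibroblast, 17 KO monocyte/macrophage and 11 and 6 neutrophil members lower. Over the same interval, 1 WT endothelial member was higher with every cell weighed alike, 14 KO endothelial members with at least 1 UMI, 6 WT and 4 KO fibroblast members were lower with at least 200 UMIs, and 22 KO neutrophil members were lower after centring.

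The 7 reversed single values were, with every cell weighed alike, Hif1a at 0.075 and Mxi1 at -0.48 in fibroblasts (KO against WT, 72 h), with the UMI minimum Slc2a3 at -0.27 in monocyte/macrophage cells (KO against WT, 72 h), and after centring Hif1a at 0.17 in KO monocyte/macrophage cells (24 h against sham) and Ldha at -0.24, Pfkfb4 at -0.10 and Ndrg1 at -0.043 in WT neutrophils (72 h against 24 h). The cause of these shifts was not tested, except that pair minimums and the 2-fold limit by construction admit more or fewer members.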
